A study of Homo sapiens with 6 samples.

Results

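The genes described here encode the machinery that carries a cell from G1 through DNA replication to division. They were chosen by name, 60 genes in all, and a gene was taken as present where its symbol stood in the deposited table of 20851 gene names. The table lists 57 of them, 20 that act in or at the end of G1, 14 of S phase and 23 of G2 and mitosis (G2/M), and all 57 had enough counts to be tested. The cyclin gene CCND2, the inhibitor gene CDKN2B and the transcription factor gene E2F2 are not listed under their own symbols. The libraries come from the human melanoma cell line A375, cultured in RPMI medium with serum. In 3 libraries the cells were A375RIPK4.KO cells, a subline (clone #1) in which the kinase gene RIPK4 was disrupted with CRISPR/Cas9 delivered by lentivirus. The other 3 came from A375neg cells, the negative control, which the labels call a GFP control and for which the study describes a non-targeting guide RNA. All knockout libraries come from 1 clone, so that what is particular to the clone and what follows the loss of RIPK4 cannot be told apart. The comparison asks whether the proliferation programme, read as its G1, S and G2/M blocks, differed between these groups.

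As background, progress through the cycle is driven by cyclin-dependent kinases (CDKs), each switched on by its cyclin partners and held back by CDK inhibitors. In G1, D-type cyclins with CDK4 or CDK6 and then E-type cyclins with CDK2 phosphorylate the retinoblastoma family of pocket proteins, which frees E2F transcription factors to switch on the genes of DNA replication. Later in the cycle B-MYB and FOXM1, acting with the MuvB complex, switch on the genes of mitosis. A375 cells carry activated BRAF, a kinase whose growth signal is known to feed into this circuit through cyclin D1. In RNA from a whole culture, more cells in a phase and more of a transcript per cell cannot be told apart.

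The depth, taken as the summed raw counts over all genes, ran from 21882863 to 26694140. The limit that a count of 0 leaves, 3 counts, corresponds to 0.112 to 0.137 CPM, where CPM scales each library to the same total, and it covers counting error only. RIPK4 had 319, 368 and 404 raw counts in the A375neg libraries and 42, 51 and 61 in the A375RIPK4.KO libraries, a log2 fold change of -2.69, so that the libraries matched their labels. Of 9 melanocyte markers looked for, 6 are listed, and their summed normalised counts were 9494 to 10261 in A375neg and 8179 to 8590 in A375RIPK4.KO cells, nearly all from SOX10. MLANA, TYR and DCT, which define pigmented melanocytes, are not listed. Of the leukocyte markers, 4 of 8 are listed and did not exceed 50.2 normalised counts summed in A375neg and lay between 0 and 19.7 in A375RIPK4.KO cells. For fibroblasts, 4 of 6 are listed (121 to 150 against 102 to 137), for keratinocytes 3 of 6 (1755 to 1845 against 1308 to 1623) and for endothelium 4 of 4 (300.3 to 406 against 439 to 482). The summed ranges overlapped for fibroblasts, were lower in A375RIPK4.KO cells for melanocyte, keratinocyte and leukocyte markers and higher for endothelium. The endothelial sum followed KDR alone (log2 fold change 0.60), since PECAM1 fell (-2.12), and the keratinocyte sum followed KRT14 (-1.75), with KRT10 at -0.0055. The part of these levels in the cell cycle results was not tested.

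The promoters of the blocks differ in the regulatory letters they hold, which is a property of the sequence and not of these libraries. Windows from 250 bases before to 50 bases after the start of 1 transcript per gene came from RefSeq (GRCh38.p14) for 48 of the 60 genes. For 44 of these the start lay within 100 bases of the outer end of the gene, and for RRM2, AURKB, CCND3 and RB1 it lay 171, 350, 1347 and 172699 bases inside it. E2F elements were searched as TTTGGCGC, TTTCCCGC, TTTCGCGC or TTTGCCGC. The cell cycle homology region (CHR) that MuvB reads was searched as TTTGAA, and the NF-Y element as CCAAT. Both strands were searched for each element separately, so that different elements could share bases. E2F letters stood in 9 of 12 S windows (75.0%), in 5 of 17 G1 windows (29.41%) and in 2 of 19 G2/M windows (10.53%), against 5.36% of the 10848 windows of all tested genes. CHR letters stood in 10 of 19 G2/M windows (52.63%), 2 of 17 G1 windows and 1 of 12 S windows, against 9.88% of all windows. CCAAT stood in 14 of 19 G2/M windows (73.68%), in 75.0% of S windows and in 6 of 17 G1 windows (35.29%), against 36.88% of all. CHR and CCAAT occurred together in 9 of 19 G2/M windows (47.37%), 1 of 17 G1 windows, 1 of 12 S windows and 4.17% of all. Over windows within 100 bases of the gene's outer end, E2F letters stood in 9 of 11 S windows, 5 of 15 G1 windows and 2 of 18 G2/M windows (5.57% of 9232), and CHR letters in 10 of 18 G2/M windows (9.8% of 9232). Below, the 160 bases before the start are printed for 2 mitotic genes that rose in A375RIPK4.KO cells, CDC20 (chr1:43358821-43358980, plus strand) and KIF11 (chr10:92592970-92593129, plus strand), and for 2 replication genes that did not pass the test, MCM6 (chr2:135876444-135876603, minus strand) and PCNA (chr20:5126623-5126782, minus strand). Each is written 5′ to 3′ on the gene's strand, and capitals mark the letters searched, on either strand.
CDC20: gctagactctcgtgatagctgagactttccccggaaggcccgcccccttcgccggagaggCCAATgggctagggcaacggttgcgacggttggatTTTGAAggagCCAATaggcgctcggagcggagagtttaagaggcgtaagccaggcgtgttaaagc
KIF11: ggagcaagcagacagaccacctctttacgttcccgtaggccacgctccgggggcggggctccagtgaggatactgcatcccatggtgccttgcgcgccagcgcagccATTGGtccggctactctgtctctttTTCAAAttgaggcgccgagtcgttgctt
MCM6: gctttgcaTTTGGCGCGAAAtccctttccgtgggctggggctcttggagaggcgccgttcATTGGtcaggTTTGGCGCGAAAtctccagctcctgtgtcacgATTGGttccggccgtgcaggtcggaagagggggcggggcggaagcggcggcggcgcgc
PCNA: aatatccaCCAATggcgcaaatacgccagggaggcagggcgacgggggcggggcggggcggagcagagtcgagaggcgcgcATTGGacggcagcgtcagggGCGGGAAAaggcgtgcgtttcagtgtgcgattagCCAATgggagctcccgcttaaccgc
In this stretch of CDC20 the CHR lies between 2 CCAAT boxes, and in KIF11 both elements are read on the opposite strand, as TTCAAA and ATTGG. MCM6 holds E2F letters in both directions at each of 2 places. The windows of the other mitotic genes that rose were less alike. The window of AURKB, which starts inside the gene, held 1 CCAAT and no CHR or E2F letters, and that of CENPE held none of the letters searched. A match is a description of the letters and not a measured binding site.

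Across the 57 genes, 5 passed the test, 4 higher and 1 lower in A375RIPK4.KO cells (edgeR's quasi-likelihood test, Benjamini-Hochberg adjusted p under 0.05 over all 14443 genes tested). This is 8.77% of them, whereas 16.6% of all genes tested passed. The genes that rose were CDC20, KIF11, CENPE and AURKB, all of mitosis, and the gene that fell was CDK2, the kinase of the G1 to S step. None of the 5 changed by 1.5-fold or more, a size that 9.04% of all tested genes reached together with the test (4.39% higher and 4.65% lower). By direction, 7.02% of the 57 genes passed as higher, against 8.4% of all genes, and 1.75% as lower, against 8.24%. The order of these shares depended on the fit. With the length trend removed 11 of the 57 passed as higher and 4 as lower, against 1560 and 1410 of all genes. In that fit the share of the 57 that passed was above that of all genes, as was the share that passed as higher. Other fits moved these counts too. As higher, 8 of the 57 passed with DESeq2 (1370 of all genes), 8 without replicate 1 of the knockout (1072) and 7 without its replicate 2 (1450). Without A375neg replicates 1, 2 and 3 in turn 2, 2 and 3 passed (775, 744 and 829), and without knockout replicate 3 it was 3 (836). The 95% interval of the log2 fold change lay wholly inside 1.5-fold in either direction (0.585 on the log2 scale) for 56 of the 57 genes, against 57.6% of all tested genes. Most cell cycle genes are abundant, and among the 7271 genes with at least 500 normalised counts, which include 53 of the 57, that share was 89.3%. The exception was CDKN2A, a low gene whose interval ran from -1.06 to 0.56. The median standard error of a log2 fold change was 0.074 for the 57 genes and 0.114 for all genes.

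**Figure D1:**
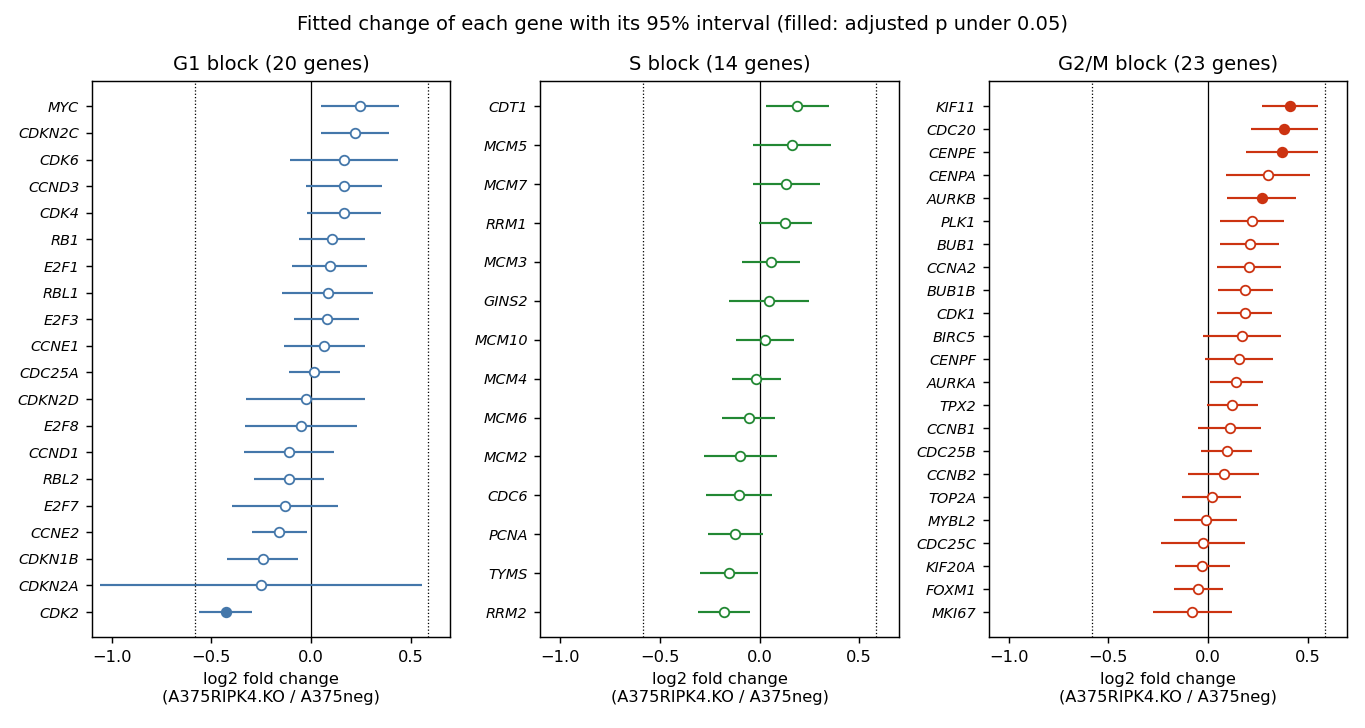
Log2 fold change (A375RIPK4.KO over A375neg) of each of the 57 genes with its 95% interval, in the G1, S and G2/M blocks, ordered by size, with 3 libraries a group. Filled points passed the test, dotted lines mark 1.5-fold, and the points of the G2/M block lie mostly to the right of 0, from -0.08 to 0.41, while those of G1 and S fall on both sides.

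By block, the G2/M genes leaned upwards and the others did not. In the G2/M block 18 of 23 genes had a positive and 5 a negative log2 fold change, with a median of 0.16, against a median of -0.0047 over all tested genes. In G1 the split was 11 to 9 with a median of 0.04, and in S it was 7 to 7 with a median of 0.01. The lowest A375RIPK4.KO library lay above the highest A375neg library for 13 of 23 G2/M genes, 2 of 20 G1 genes and 3 of 14 S genes, where 18.7% of all tested genes did so. The reverse held for no G2/M gene, 3 G1 genes and 3 S genes, against 17.8% of all. At an unadjusted p under 0.05, 11 G2/M genes were higher and none lower, where 15.1% and 14.9% of all genes were. These shares describe the block, and no test of the block as a whole was made.

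Per library, the median deviation of the G2/M genes from their mean over the 6 libraries was -0.044, -0.085 and -0.072 on the log2 CPM scale in A375neg replicates 1 to 3 and 0.036, 0.114 and 0.079 in the A375RIPK4.KO replicates. The groups did not overlap. For G1 the values were -0.021, -0.0084 and 0.047 against -0.0017, -0.058 and 0.036, and for S -0.0038, 0.037 and -0.036 against -0.045, 0.032 and 0.0027. In these blocks the libraries of both groups were interleaved. The summed normalised counts of the G2/M genes were 137026 ± 1609 (SD, n = 3) in A375neg and 150458 ± 1106 in A375RIPK4.KO cells, a ratio of 1.10, and took 0.559% ± 0.0078 and 0.612% ± 0.0195 of all counts. The ratio of sums was 1.01 for G1 and 0.988 for S.

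**Figure D2:**
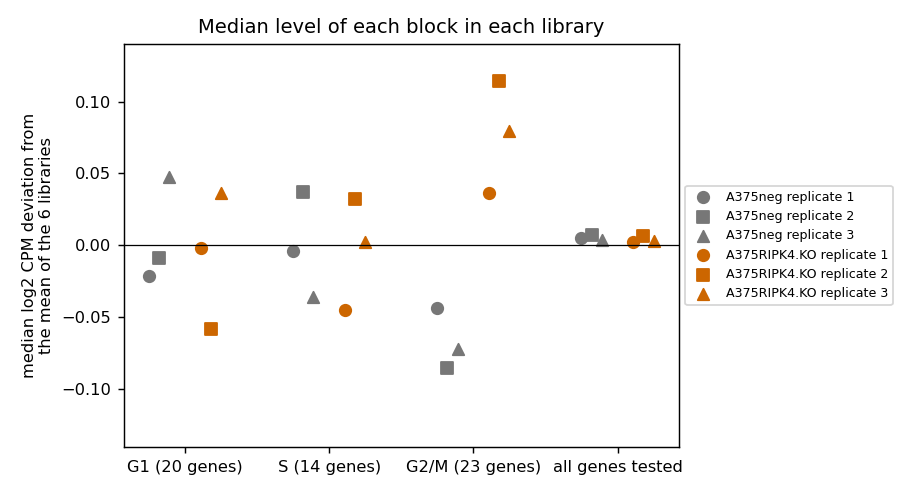
Median deviation of each block's genes from their mean over the 6 libraries (log2 CPM, vertical axis) in each library, for G1, S, G2/M and all genes tested. Grey marks are A375neg and orange marks A375RIPK4.KO libraries; in G2/M the A375neg marks lie between -0.085 and -0.044 and the A375RIPK4.KO marks between 0.036 and 0.114, while in the other blocks the groups overlap.

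Replicate 2 of A375RIPK4.KO differed from replicates 1 and 3 along transcript length. Its log2 difference from their mean fell with log10 transcript length over the 57 genes (Pearson r = -0.597, Spearman rho = -0.670, a description across genes of the same libraries). Over the 12916 tested genes with a known transcript length r was -0.206. All 7 cell cycle genes with a transcript of at least 5000 bases lay below 0 in that library, with a median of -0.30, while 14 of the 50 shorter ones did, with a median of 0.11. The long ones were CDK6, RBL1, E2F7, CENPE, CENPF, TOP2A and MKI67. The block median of G2/M was 0.14 without this library, and 6 G2/M genes then passed as higher and 0 as lower. Without it 1 G1 gene passed as higher and 2 as lower, and 3 S genes passed as lower. Calls over all genes rose as well in that fit, from 1213 to 1450 as higher and from 1190 to 1502 as lower. The part of RNA quality or library preparation in this difference was not tested.

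**Figure D3:**
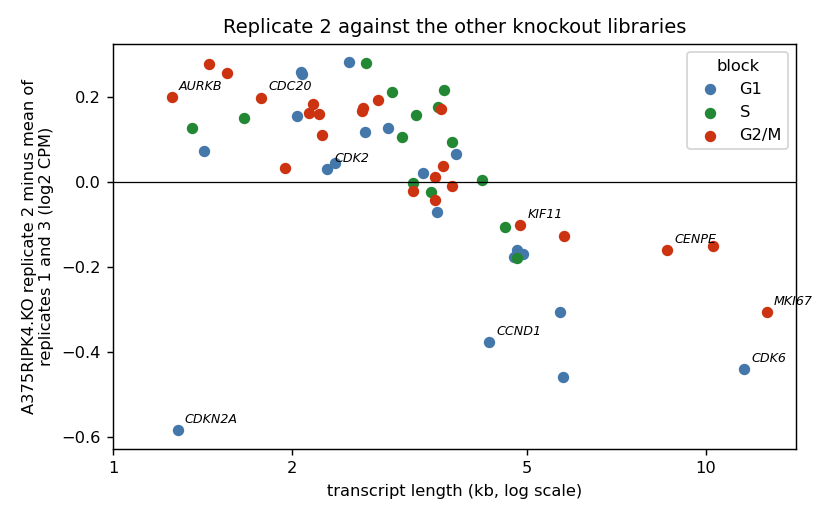
Difference of A375RIPK4.KO replicate 2 from the mean of replicates 1 and 3 (log2 CPM, vertical axis) against transcript length (kb, log axis) for the 57 genes, coloured by block. Genes of at least 5000 bases all lie below 0, with a median of -0.30, and shorter genes mostly lie above it, with a median of 0.11.

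In the G1 block, the D-type cyclins are the sensors of growth signals. CCND1, cyclin D1, had 18280 ± 302 normalised counts in A375neg and 16914 ± 2463 in A375RIPK4.KO cells (SD, n = 3), a log2 fold change of -0.11 (95% interval -0.34 to 0.11). Its knockout values were 18716, 14108 and 17919, and without replicate 2 of the knockout the fold change was 0.01. CCND3, cyclin D3, had 2346 ± 106 and 2632 ± 287 (log2 fold change 0.17). Per kb of transcript CCND1 made up 79.0% ± 0.94 of the 2 listed D-type cyclins in A375neg and 75.4% ± 4.91 in A375RIPK4.KO cells. Of their partner kinases CDK4 had a log2 fold change of 0.16 (-0.02 to 0.35) and CDK6 of 0.17 (-0.11 to 0.44), and CDK4 took 85.9% and 85.8% of the sum of both per kb. None of these 4 genes passed, and the groups overlapped for each. CDK6 passed as higher when replicate 2 of the knockout was left out (log2 fold change 0.30, adjusted p = 0.0112).

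None of the 4 listed CDK inhibitors passed. CDKN1B, p27, which restrains CDK2, had 973, 1096 and 1108 normalised counts in A375neg and 896, 945 and 844 in A375RIPK4.KO cells, so that the groups did not overlap, with a log2 fold change of -0.24 (-0.42 to -0.06, adjusted p = 0.0702). CDKN2C, p18, an inhibitor of CDK4 and CDK6, had 1098, 1140 and 1225 against 1249, 1424 and 1358, again without overlap, with 0.22 (0.05 to 0.39, adjusted p = 0.0818). Neither passed in the fit reported here. With the length trend removed both did, CDKN1B at an adjusted p of 0.0419 and CDKN2C at 0.0462. CDKN2D, p19, had 267 ± 33.3 and 262 ± 12.5. CDKN2A, the gene of p16 and ARF, had only 46.8 ± 15.1 and 39.3 ± 15.4 normalised counts, and its interval of -1.06 to 0.56 did not exclude a fall of 1.5-fold. Per kb, CDKN1B made up 39.1% ± 1.28 of the 4 inhibitors in A375neg and 33.2% ± 1.86 in A375RIPK4.KO cells, and CDKN2C 39.0% ± 0.63 and 45.6% ± 0.98.

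The pocket proteins and E2F factors form the switch at the end of G1. RB1, RBL1 and RBL2 had log2 fold changes of 0.11, 0.08 and -0.11. Of the activating E2F factors, E2F1 had 2792 ± 58.1 against 2980 ± 351 normalised counts (log2 fold change 0.09) and E2F3 had 1223 ± 32.0 against 1292 ± 89.9 (0.08). Of the repressing factors, E2F7 had 1369 ± 50.8 against 1252 ± 221 (-0.13) and E2F8 had 228 ± 7.11 against 220 ± 15.6 (-0.05). None of these 7 genes passed, and every interval lay inside 1.5-fold. The signs of E2F1 and E2F7 were not stable, since without a single library E2F1 ranged from -0.0029 to 0.16 and E2F7 from -0.23 to 0.01. E2F1 was the most abundant listed factor per kb, with 66.5% ± 1.01 of the 4 in A375neg and 68.1% ± 4.71 in A375RIPK4.KO cells.

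**Figure D4:**
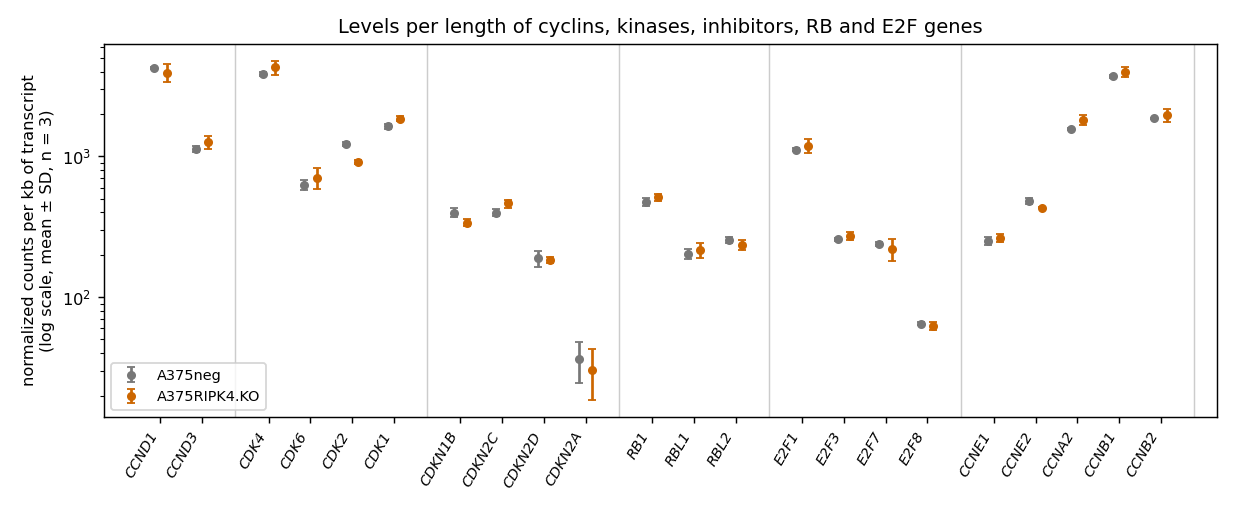
Normalised counts per kb of transcript (log axis, mean ± SD, n = 3) of cyclins, CDKs, CDK inhibitors, pocket proteins and E2F factors in A375neg (grey) and A375RIPK4.KO (orange) cells. CCND1, at 4244 and 3927 per kb, and CDK4, at 3819 and 4282, lie near the top and CDKN2A, at 36.5 and 30.6, is the lowest, and CDK2, at 1224 and 909, is the gene among them that passed the test.

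CDK2 was the only G1 gene of the 20 that passed. This is 5% as lower, against 8.24% of all tested genes, and none passed as higher, against 8.4%. CDK2 lies at chr12:55966830-55972789. It had 2884, 2848 and 2699 normalised counts in the A375neg libraries against 2010, 2118 and 2135 in the A375RIPK4.KO libraries. Every knockout library was below every control library. The log2 fold change was -0.43 ± 0.059 (SE, 95% interval -0.56 to -0.29, adjusted p = 0.00119), so that CDK2 RNA fell by 25.7%. The call held in each of the 6 fits that left out a library, with log2 fold changes of -0.46 to -0.40. Its E-type cyclin partners did not pass. CCNE1 had 510 ± 33.0 against 535 ± 34.2 normalised counts and CCNE2 1606 ± 71.2 against 1438 ± 14.1, the latter without overlap of the groups (log2 fold change -0.16, adjusted p = 0.114). CDC25A, the phosphatase that activates CDK2, had 3039 ± 11.6 and 3074 ± 125. MYC, a driver of cell growth, had the highest log2 fold change of the block, 0.25 (0.05 to 0.44, adjusted p = 0.0865), with 474, 481 and 450.2 against 514, 567 and 587 normalised counts and no overlap, and it passed in none of the alternatives.

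In the S block no gene of the 14 passed, where 8.4% of all tested genes passed as higher and 8.24% as lower. The 10 genes of origin licensing and the replicative helicase had log2 fold changes from -0.10 to 0.19, 6 of them positive. CDT1, which loads the MCM helicase onto origins, was the highest of the block, with 2409, 2508 and 2555 normalised counts in A375neg and 2858, 3050 and 2611 in A375RIPK4.KO cells (log2 fold change 0.19, 0.03 to 0.35, adjusted p = 0.105). The groups did not overlap, although knockout replicate 3 came close to the controls. CDC6, its partner in loading, was at -0.10, MCM10 at 0.03 and GINS2, a subunit of the active helicase, at 0.05. The 6 genes MCM2 to MCM7 form 1 ring and had log2 fold changes from -0.10 for MCM2 to 0.16 for MCM5, 3 of them positive. Per kb, MCM7 made up the largest share of the 6, at 37.7% ± 0.48 in A375neg, and its level was 5124 ± 166 per kb in A375neg and 5621 ± 490 in A375RIPK4.KO cells. MCM2 held 20.3% ± 0.26 of the sum in A375neg and 18.3% ± 0.76 in A375RIPK4.KO cells. MCM7 was also the only 1 of the 6 whose groups did not overlap, with a log2 fold change of 0.13 (adjusted p = 0.269). Of all tested genes 18.7% were higher without overlap and 17.8% lower.

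Of the genes that supply the fork, none passed, and 3 of 4 had negative fold changes without overlap of the groups, where 17.8% of all tested genes were lower without overlap. RRM2, the regulated subunit of ribonucleotide reductase, was the lowest of the block, with 12833, 13123 and 12272 normalised counts in A375neg and 11250, 11136 and 11385 in A375RIPK4.KO cells (log2 fold change -0.18, -0.31 to -0.05, adjusted p = 0.0649). TYMS, thymidylate synthase, was at -0.15 (adjusted p = 0.144) and PCNA, the sliding clamp, at -0.12 (adjusted p = 0.231). RRM1, the large subunit of ribonucleotide reductase, lay in the other direction at 0.13, also without overlap. RRM2 passed with DESeq2 (adjusted p = 0.0179), and RRM2, TYMS and PCNA passed as lower when replicate 2 of the knockout was left out (adjusted p = 0.0374, 0.0152 and 0.0349). With the length trend removed, RRM2 and TYMS passed.

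In the G2/M block, 4 of 23 genes rose and none fell, 17.4% against the 8.4% of all genes that passed as higher. CDC20, the activator of the anaphase-promoting complex, lies at chr1:43358981-43363203. It had 10097, 10920 and 10750 normalised counts in A375neg and 12812, 15109 and 13521 in A375RIPK4.KO cells. The log2 fold change was 0.38 ± 0.075 (SE, 95% interval 0.21 to 0.55, adjusted p = 0.00768), a rise of 30.5%. Every knockout library was above every control library, with replicate 2 of the knockout the highest. Without replicate 2 of the knockout the value was 0.32, and without replicate 1 of A375neg the call was lost (adjusted p = 0.052).

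KIF11, the kinesin that pushes the spindle poles apart, lies at chr10:92593130-92655395. It had 6478, 6374 and 6846 normalised counts in A375neg and 9126, 8326 and 8730 in A375RIPK4.KO cells, with a wide gap between the groups. This gave the highest log2 fold change of the 57 genes, 0.41 ± 0.062 (SE, 0.27 to 0.55, adjusted p = 0.00202), a rise of 32.9%, and the call held in all 6 fits that left out a library. CENPE, a kinesin that moves chromosomes to the spindle equator, lies at chr4:103105811-103198343. It had 3551, 3159 and 3715 normalised counts in A375neg and 4786, 4167 and 4523 in A375RIPK4.KO cells, again with no overlap, and a log2 fold change of 0.37 ± 0.080 (SE, 0.19 to 0.55, adjusted p = 0.0127). Its call was lost without replicate 2 of A375neg (log2 fold change 0.31, adjusted p = 0.06). AURKB, the kinase of the chromosomal passenger complex, lies at chr17:8204731-8210575. Its normalised counts were 2616, 2343 and 2387 in A375neg and 2771, 3231 and 2852 in A375RIPK4.KO cells, and the lowest knockout library stood only just above the highest control. The log2 fold change was 0.27 ± 0.077 (SE, 0.10 to 0.44, adjusted p = 0.0433). Of the 4, AURKB lost its call most often in the fits that left out a library, namely without any single A375neg library (adjusted p = 0.0595, 0.157 and 0.141 without replicates 1, 2 and 3) or without replicate 3 of the knockout (adjusted p = 0.0779).

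**Figure D5:**
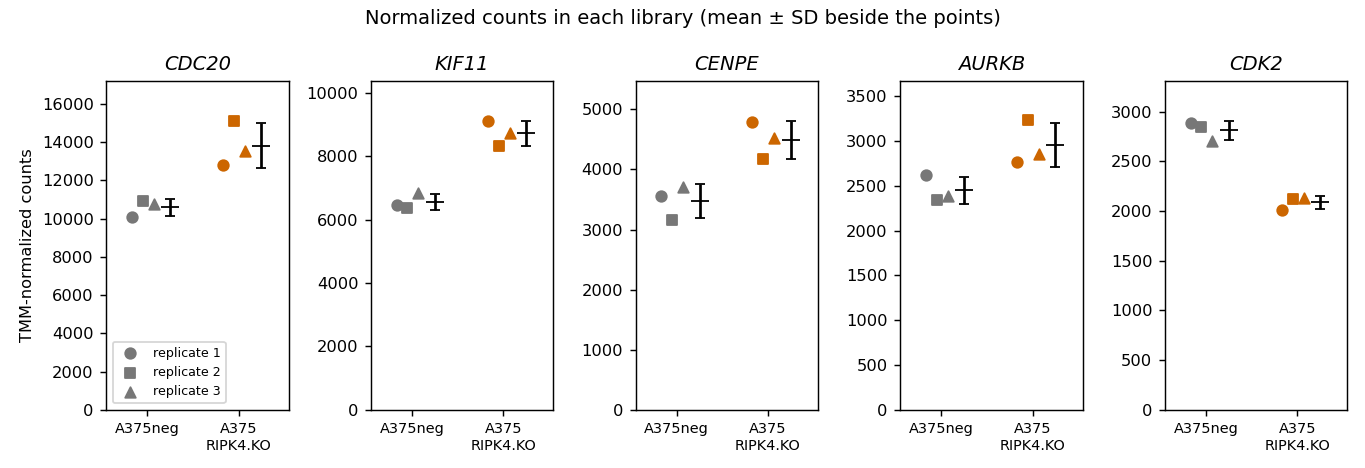
Normalised counts (vertical axes, each from 0) of the 5 genes that passed the test in each library, with the mean ± SD (n = 3) beside the points. Grey marks are A375neg and orange marks A375RIPK4.KO libraries, and the marker shape gives the replicate; for CDC20, KIF11, CENPE and AURKB every orange mark is above every grey mark, and for CDK2 every orange mark is below.

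The other mitotic kinases and checkpoint genes lay in the same direction without passing in the fit reported here. Their log2 fold changes were 0.22 for PLK1, 0.21 for BUB1, 0.19 for BUB1B, 0.14 for AURKA and 0.17 for BIRC5, the survivin gene. The adjusted p was 0.0661 for PLK1, 0.0638 for BUB1 and 0.0676 for BUB1B. Of the 7 genes of this set, with AURKB and CDC20, all were positive, 2 passed, and the groups did not overlap for 6, BIRC5 being the exception. Of all tested genes 8.4% passed as higher and 18.7% were higher without overlap. Of the cyclins and kinases of entry into mitosis, CCNA2 (cyclin A2) was at 0.21, CDK1 at 0.18, CCNB1 at 0.11 and CCNB2 at 0.08, and of the CDC25 phosphatases CDC25B was at 0.09 and CDC25C at -0.03. The groups did not overlap for CCNA2, CDK1 and CDC25B. Of the pair of B-type cyclins, compared per kb, CCNB1 made up 66.5% ± 0.36 of the sum in A375neg and 66.9% ± 0.67 in A375RIPK4.KO cells.

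The transcription factors of the late programme had fold changes near 0. FOXM1 was at -0.05 (-0.17 to 0.08) and MYBL2, the gene of B-MYB, at -0.01 (-0.17 to 0.15). So had the usual markers of proliferating cells. MKI67, the gene of the Ki-67 antigen, had 13750, 13048 and 13724 normalised counts in A375neg and 13960, 11058 and 13364 in A375RIPK4.KO cells, a log2 fold change of -0.08 (-0.28 to 0.12). Only replicate 2 of the knockout was low. TOP2A, topoisomerase II alpha, was at 0.02 (-0.13 to 0.17). Among the centromere and spindle genes CENPA, the histone that marks centromeres, had 794, 796 and 809 against 874, 1115 and 966 normalised counts with no overlap (log2 fold change 0.30, 0.09 to 0.51, adjusted p = 0.0569). CENPF was at 0.16, TPX2 at 0.12 and KIF20A at -0.03. With DESeq2 4 further G2/M genes passed as higher, PLK1, BUB1, CCNA2 and CENPA (adjusted p = 0.0244, 0.0399, 0.0476 and 0.0428). With the length trend removed in edgeR these 4 passed as well, together with BUB1B and CENPF (adjusted p = 0.0345 and 0.0203). Calls as higher over all genes rose too, from 1213 to 1370 with DESeq2 and to 1560 with the length trend removed.

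Further genes of the same pathways were counted in the same way. Of 50 further mitosis genes 49 were tested, and 6 of them passed as higher and none as lower, which is 12.2% against 8.4%, with a median log2 fold change of 0.11, and none of the 6 reached 1.5-fold. Of 48 further replication genes 2 passed as higher (4.17%, against 8.4% of all genes) and 3 as lower (6.25%, against 8.24%), with a median of 0.03. UHRF1, which guides maintenance of DNA methylation at the fork, fell by at least 1.5-fold, with 2567, 2581 and 2756 normalised counts in A375neg and 1851, 1103 and 2069 in A375RIPK4.KO cells (log2 fold change -0.65, adjusted p = 0.0434). The lowest value was that of replicate 2 of the knockout. Without that library the fold change was -0.42 with an adjusted p of 0.00101, under 1.5-fold, and the call was lost with DESeq2 (adjusted p = 0.084), under a minimum of 50 counts (0.0504) and without any A375neg library or replicate 1 of the knockout (0.0547 to 0.129).

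Of 30 further regulators of G1 and of entry into mitosis 28 were tested, and 2 passed as higher (7.14%, against 8.4% of all genes) and 4 as lower (14.3%, against 8.24%), all 4 by at least 1.5-fold, where 4.65% of all tested genes did so. CDKN1A, p21, the CDK inhibitor induced by p53, had 5344, 5896 and 5524 normalised counts in A375neg and 3203, 4056 and 3411 in A375RIPK4.KO cells (log2 fold change -0.65, adjusted p = 0.00121). CCNA1, the cyclin A known from the germ line, had 276, 299 and 303 against 145, 139 and 124 (-1.11, adjusted p = 0.000513). CCNG2, a cyclin linked to cell cycle exit, had 297, 275 and 360.2 against 143, 162 and 147 (-1.04, adjusted p = 0.00125). MXD1, which competes with MYC for its partner MAX, had 306, 262 and 302 against 193, 146 and 194 (-0.71, adjusted p = 0.0128). For each of these 4 genes every knockout library was below every control library, as held for 17.8% of all tested genes. The 4 were named because they passed at 1.5-fold or more, so this separation adds no support of its own. The adjusted p of CDKN1A, CCNA1 and CCNG2 stayed under 0.05 in all 6 fits that left out a library, although the size of CDKN1A without replicate 1 of the knockout (-0.58) and of MXD1 without replicate 2 (-0.58) fell just short of 1.5-fold, and the call of MXD1 was lost without replicate 1 or 3 of A375neg (adjusted p = 0.0536 and 0.0512).

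Exons of some of these genes overlap those of a neighbour, and the sources used here do not state whether counting used the strand of the reads. Among overlaps of at least 10% of a gene's exon bases, listed genes on the opposite strand are TSPAN31, which covers 43.2% of CDK4, ENOSF1 with 39.1% of TYMS, INTS8 with 37.0% of CCNE2, ITFG2 with 15.9% of FOXM1 and LTO1 with 10.3% of CCND1. Antisense transcripts that are not listed cover 22.7% of MCM2, 14.5% of CDK2 and 11.6% of PLK1. On the same strand, genes that are not listed cover 20.2% of RRM2 and 10.2% of BUB1B. Values of these genes may include or lack reads of their neighbours.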

How the data were processed

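RNA of 3 A375neg and 3 A375RIPK4.KO samples was sequenced as poly(A)-selected, strand-specific paired-end libraries. The raw counts per gene were deposited as whole numbers. The submitters' processing notes name cutadapt, FastQC, HISAT2, HTSeq, DESeq2 and GRCh38.p13, and the tool versions and strand setting are not given in the sources used here. The normalized counts in the deposited table are a signal the authors obtained with 1 size factor per library. The deposited table also holds the authors' own comparison, namely the fold ratio, its log2 value with a standard error, the Wald score and the p-value, none of which was used. The raw counts were fitted with edgeR 4.0.16 under R 4.3.3, using TMM scaling, the filterByExpr filter and the quasi-likelihood test, and p-values were adjusted over 14443 genes by the Benjamini-Hochberg method. A gene passed at an adjusted p under 0.05, and the SE is the log2 fold change over the square root of F. Normalised counts are raw counts over the TMM-scaled library size relative to the mean. The labels and the study call the replicates biological, and the study calls them independent, so p-values measure the spread between these samples.

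Lengths are those of the longest GENCODE v29 transcript tagged as first principal isoform, or of the longest transcript where a gene has no such tag. Positions and promoters are from RefSeq GRCh38.p14. The members and lists were chosen with earlier results of these data known. The naming rule gave every library's value for members that passed, for the highest and lowest member of a block with fewer than 4 of those, and for listed further genes that passed at 1.5-fold or more. D-type cyclins, CDK inhibitors and E2F factors were given whatever their p, and other members shown by library were chosen after their values were seen. Alternatives were DESeq2 1.42.0, its size factors in edgeR, a minimum mean count of 50 or no filter, a block for the replicate number, removal of the length trend, each library left out and other call rules. The length trend combined with the block, and the restriction of promoter windows by distance, were chosen after seeing the data. The steps were tested on simulated data in which the changed genes differed by 1.5-fold or more. Smaller changes, such as those of the members that passed, were not covered by it. Plots used Python 3.11.15 and matplotlib 3.10.9.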

Additional observations from a re-analysis of the deposited data

How the results depend on the processing

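The log2 fold change of CDK2, KIF11, CDC20, CENPE and AURKB kept its sign under every alternative, and the median of the G2/M block stayed between 0.14 and 0.16 under DESeq2, its size factors, both filters, the replicate block, the length correction and without each library. The number of genes that passed did not. As higher and lower, 4 and 1 of the 57 genes passed, against 8 and 2 with DESeq2. With the length trend removed the counts were 11 and 4, and with the length trend and the replicate block together 14 and 3. At 1.5-fold or more they were 0 and 0, against 634 and 672 of all genes. At an adjusted p under 0.01 they were 2 and 1, and calls over all genes at this limit were not counted. Without each library in turn 2 to 8 of the 57 passed as higher and 1 to 5 as lower. The count as higher was lowest without A375neg replicate 1 or 2 and highest without A375RIPK4.KO replicate 1. The count as lower was highest without A375RIPK4.KO replicate 2. In G2/M the count of 4 as higher became 8 with DESeq2, 10 with the length trend removed, 11 with the block as well, 0 at 1.5-fold and 2 at 0.01, and 2 to 8 without each library. In G1 the count as higher was 0 and became 1 with the length trend removed and 2 with the block as well (0 to 1 without each library), and the count as lower was 1 and became 2 under both and 0 at 1.5-fold (1 to 2 without each library). In S the count as higher was 0 and became 1 with length trend and block, and the count as lower was 0 and became 1 with DESeq2, 2 with the length trend removed and 1 with the block as well (0 to 3 without each library). Over all genes 1370 passed as higher and 1274 as lower with DESeq2, 1560 and 1410 with the length trend removed and 1613 and 1473 with the block as well, and 744 to 1450 passed as higher and 782 to 1502 as lower without each library, against 1213 and 1190. The cause of these changes was not tested.

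The labels do not say what a replicate number shares. The deviations of same-numbered libraries had correlations of 0.082, 0.036 and -0.012, and those of differently numbered libraries ran from -0.096 to 0.067. These values cannot show whether the samples were prepared in pairs. With the replicate block 4 of the 57 genes passed as higher and 1 as lower, AURKB being lost (adjusted p = 0.0528) and PLK1 gained (adjusted p = 0.0343). With 3 libraries a group and median standard errors of 0.074, changes near 0.2 on the log2 scale sat at the edge of the test, and CDKN2A, with fewer than 50 normalised counts a group, had the interval that reached past 1.5-fold.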

Other observations

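A further entry of the table, E2F2_1, carries the symbol of E2F2 with a suffix and lies on a scaffold copy of that gene, so it was not counted among the 57. It had 61, 40 and 23 raw counts in A375neg and 45, 56 and 26 in A375RIPK4.KO cells, and its log2 fold change was 0.16 (95% interval -0.78 to 1.11). Whether these counts stand for all E2F2 reads was not tested.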
